A study of Mus musculus with 703 samples.

Results

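The 10 genes described here encode enzymes of mitochondrial fatty acid beta-oxidation: Acadl, Acadm, Acadvl, Hadha, Hadhb, Acaa2, Decr1, Ech1, Eci1 and Etfdh. They were taken by symbol from a deposited table of 19088 genes, in which each symbol named a single gene, and all 10 were found and passed the filter on low counts. The table holds bulk RNA sequencing counts from the gastrocnemius, a calf muscle, of 703 mice, 1 library per mouse. The mice belonged to 20 CC-RIX strains, each the F1 cross between inbred Collaborative Cross lines, and these crosses drew on 19 parental lines. Collaborative Cross lines descend from the same inbred founders. Each line is itself inbred, so a CC-RIX animal of a strain can be bred again with the same heterozygous genome.

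The samples fell into 8 groups by sex, diet and treatment. Females and males of every strain ate a diet with 10% or 44% fat from 6 weeks of age. The labels name fibre in both diets. The study describes one diet as high in fat and sugar and the other as a control. The part of fat therefore cannot be told apart from that of the rest of the diet. Of the 703 animals, 469 were untreated (236 females and 233 males, with 234 animals on 10% fat and 235 on 44% fat). The other 234 drank 5 mg/mL metformin, a drug for type 2 diabetes, from 7 months of age (57 females and 59 males on 10% fat, 59 females and 59 males on 44% fat). The labels give no age for an animal, and the study also had a younger cohort that had no metformin, so metformin and age cannot be told apart. Untreated animals can belong to the younger or the older cohort, and no model held age. The labels number every animal as a separate sample, and in most strains each diet was given to 12 untreated animals.

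Library totals ran from 27.37 M to 96.1 M counts with a median of 47.88 M. The fewest counts of any member in any library were 881, so counting error is small beside the spread between animals. The sequencing identifiers in the labels form a lower range of 544 libraries and an upper range of 159, and the range was a term in every model, although the labels do not say what it stands for. (CC009/UncJ x CC013/GeniUncJ)F1 was in the upper range alone. By the female transcript Xist, 15 libraries went against the sex on their label. Summed liver markers were over 10 times the median of all libraries in 27 libraries, and summed white adipocyte markers in 1. The diet and metformin comparisons were repeated without each of these sets. The sex, interaction and within-strain tests were repeated only without the libraries against their sex label. Correlations, variance shares and adjusted strain levels were computed with all of these libraries. Skeletal muscle fibre markers summed to a median of 192000 to 196000 CPM (counts scaled to a common library total) in the 4 combinations of diet and treatment. All 8 of these markers were detected, as the labelled tissue requires. Among the brown adipocyte markers Ucp1 had no count in 211 libraries and Elovl3 none in 332, but they reached 198 and 18.1 CPM. Cidea had no count in 2 libraries and Otop1 none in 5, and they reached 51.6 and 15.1 CPM. Dio2, Cox8b, Ppargc1a and Cox7a1 had counts in every library.

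Beta-oxidation shortens a fatty acyl-CoA in rounds inside the mitochondrial matrix. Each round runs through an oxidation by an acyl-CoA dehydrogenase, a hydration, another oxidation and a cleavage by a thiolase that releases acetyl-CoA. The electrons of the opening oxidation pass to electron transfer flavoprotein and from it to ubiquinone. Unsaturated fatty acids need auxiliary enzymes that move or reduce their double bonds. Skeletal muscle uses fatty acids for energy at rest and in endurance work, and nuclear receptors of the PPAR and ERR families are known regulators of these genes.

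By role, Acadvl, Acadl and Acadm are the acyl-CoA dehydrogenases for very long, long and medium chains. Hadha and Hadhb are the alpha and beta subunits of the trifunctional protein of the inner membrane, which carries out the remaining steps on long chains. Acaa2 is a thiolase of the matrix. Decr1 reduces dienoyl-CoA, Ech1 is a dienoyl-CoA isomerase found in mitochondria and peroxisomes, and Eci1 is an enoyl-CoA isomerase. All 3 serve unsaturated fatty acids. Etfdh, the oxidoreductase between electron transfer flavoprotein and ubiquinone, takes the electrons of all acyl-CoA dehydrogenases.

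The members lie on 8 chromosomes, given here in the deposited annotation (GRCm38, the build in the submitters' processing notes). Acadl (ENSMUSG00000026003) spans chromosome 1, 66830839 to 66863277. Etfdh (ENSMUSG00000027809) and Acadm (ENSMUSG00000062908) are on chromosome 3, at 79603788 to 79629500 and at 153922357 to 153944632. Decr1 (ENSMUSG00000028223) spans chromosome 4, 15917240 to 15945507, and Ech1 (ENSMUSG00000053898) chromosome 7, 28825217 to 28832247. Acadvl (ENSMUSG00000018574) spans chromosome 11, 70010183 to 70015411. Eci1 (ENSMUSG00000024132) spans chromosome 17, 24426683 to 24439316. For Eci1 and Acaa2 (ENSMUSG00000036880) the deposited and GENCODE M21 coordinates differ, while they are the same for the other 8 members. Hadha (ENSMUSG00000025745) and Hadhb (ENSMUSG00000059447) are neighbours on chromosome 5, at 30118304 to 30155162 on the minus strand and 30155248 to 30184593 on the plus strand. Their starts face away from each other across a gap of 85 bases.

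Promoter sequences, 250 bases before the gene start that RefSeq gives (GRCm38.p6), were matched to 8 members by symbol; Acaa2 and Decr1 were not matched. RefSeq starts can differ from those of the deposited annotation, and the window of Etfdh lies inside the deposited gene and those of Hadha, Hadhb and Ech1 run into theirs. The stretch between the starts of Hadha and Hadhb is shown because it lies before both genes. The others are shown because, of these 8 promoters, they hold a searched nuclear receptor or NRF1 motif. Capitals mark the matches, which were searched on both strands. The first sequence is chr5:30155163-30155247 on the plus strand, Acadm is chr3:153944644-153944893 on the minus strand, Acadvl is chr11:70015429-70015678 on the minus strand, and Etfdh is a 30-base stretch, chr3:79628876-79628905 on the minus strand.
Hadha to Hadhb: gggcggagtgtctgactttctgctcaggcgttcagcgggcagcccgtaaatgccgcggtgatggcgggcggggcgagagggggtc
Acadm: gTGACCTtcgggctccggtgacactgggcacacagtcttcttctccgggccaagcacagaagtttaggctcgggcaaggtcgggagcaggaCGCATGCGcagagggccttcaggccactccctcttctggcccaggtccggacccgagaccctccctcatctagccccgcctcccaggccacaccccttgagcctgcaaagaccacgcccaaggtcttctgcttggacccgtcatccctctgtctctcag
Acadvl: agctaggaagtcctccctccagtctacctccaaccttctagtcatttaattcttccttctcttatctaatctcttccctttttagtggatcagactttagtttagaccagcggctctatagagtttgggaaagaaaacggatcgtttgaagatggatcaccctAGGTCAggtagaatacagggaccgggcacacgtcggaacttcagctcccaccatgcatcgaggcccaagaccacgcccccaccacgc
Etfdh: tgcttctagggCGCATGCGcacacgcgaga

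The nuclear receptor half-site AGGTCA was in 2 of the 8 member promoters, Acadvl and, as its reverse complement, Acadm, and in 14% of all 32851 promoter entries. Its direct repeat with 1 base between, AGGTCANAGGTCA, was in 0 of the 8 and in 0.0335% of all promoters. The ERR half-site TCAAGGTCA, whose last letters contain AGGTCA, was in 0 of the 8 and in 0.387% of all. The NRF1 core CGCATGCG was in Acadm and Etfdh and in 1.55% of all promoters. Among the 8, the CCAAT box was in Etfdh alone, and it was in 33.8% of all promoters. The stretch between Hadha and Hadhb had 69.4% G and C. These matches describe letters in a window. They were not tested as binding sites.

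All members were well expressed. Over the 703 libraries Hadhb had a mean of 292.9 CPM and Hadha 283.2 CPM, followed by Acadm at 218.5 CPM, Acadvl at 208.9 CPM and Acadl at 184.0 CPM. Ech1 had a mean of 106.1 CPM, Etfdh 96.08 CPM, Acaa2 91.77 CPM, Decr1 80.19 CPM and Eci1 40.71 CPM. Together the members made up 1602 CPM on average. The order changed per kilobase of exon. On that scale Acadl was highest at 91.78 CPM per kb, then Acadvl at 77.78, Acaa2 at 60.53 and Acadm at 55.84. Ech1 had 46.47 CPM per kb, Hadhb 44.41, Hadha 32.43, Decr1 20.67, Eci1 19.14 and Etfdh 12.8. The per-kb order depends on the annotated exons, since the total exon length of Hadha (8730 bases) counts every annotated transcript.

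The first comparison set the diet with 44% fat against the diet with 10% fat in untreated animals. Every member was higher on 44% fat than on 10% fat, by 1.19-fold for Acadm to 1.37-fold for Ech1. The size of the difference did not follow the order of the pathway. The largest values were those of Ech1, an isomerase for unsaturated chains, and Acadl, the long-chain dehydrogenase, while Acadm and Etfdh had the smallest. All values below are CPM and give the lowest, the median and the highest animal of 234 on 10% fat and 235 on 44% fat.

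Ech1 ran from 62.4 through 87.87 to 127.9 CPM on 10% fat and from 78.82 through 121.0 to 223.2 CPM on 44% fat. The diets overlapped, but 97.9% of the animals on 44% fat lay above the median of those on 10% fat, and 87 of them lay above every animal on 10% fat. The log2 fold change was 0.46 ± 0.016 (SE; edgeR quasi-likelihood test, adjusted p = 1.5e-95), the smallest p of all 16384 genes tested. Across those genes, 20.3% passed the threshold and 10.1% were higher on 44% fat.

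Among the dehydrogenases, Acadl ran from 96.14 through 155.6 to 290.1 CPM on 10% fat and from 127.5 through 213.5 to 329.2 CPM on 44% fat. The highest animal on 10% fat thus came close to the top of the other diet, yet only 1.71% of the animals on 10% fat exceeded the median of those on 44% fat. Its log2 fold change was 0.43 ± 0.018 (SE). Acadvl had 140.2, 188.0 and 279.6 CPM on 10% fat and 162.8, 229.8 and 364.1 CPM on 44% fat, a log2 fold change of 0.29 ± 0.013 (SE). Acadm had 136.2, 199.4 and 272.7 CPM against 163.5, 238.6 and 344.8 CPM, a log2 fold change of 0.25 ± 0.013 (SE). For Acadm 89.4% of the animals on 44% fat lay above the median of the others, the lowest such share of the members, while 37 lay above every animal on 10% fat.

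The subunits of the trifunctional protein moved by nearly the same amount. Hadha had 197.6, 253.0 and 356.6 CPM on 10% fat and 157.7, 309.5 and 451.2 CPM on 44% fat. Hadhb had 192.6, 259.7 and 368.7 CPM against 185.7, 317.9 and 486.0 CPM. For both genes the lowest animal of all was on 44% fat, so the ranges overlapped fully at the low end. The log2 fold changes were 0.29 ± 0.012 for Hadha and 0.28 ± 0.014 for Hadhb (SE).

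The thiolase gene Acaa2 lies on chromosome 18, 74779197 to 74806207 in the deposited annotation. It had 56.9, 82.28 and 152.8 CPM on 10% fat and 64.4, 100.4 and 171.5 CPM on 44% fat, a log2 fold change of 0.31 ± 0.017 (SE). Decr1 had 53.92, 71.46 and 97.32 CPM against 56.26, 88.04 and 134.7 CPM, a log2 fold change of 0.31 ± 0.013 (SE). Eci1, the least abundant member, had 24.82, 36.08 and 55.01 CPM against 28.31, 44.8 and 80.86 CPM, with a log2 fold change of 0.31 ± 0.018 (SE). Etfdh had 61.28, 85.94 and 138.7 CPM against 49.6, 105.2 and 148.0 CPM, with a log2 fold change of 0.26 ± 0.014 (SE). In each of these genes the ranges overlapped, and between 94% and 94.9% of the animals on 44% fat exceeded the median on 10% fat.

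**Figure D1:**
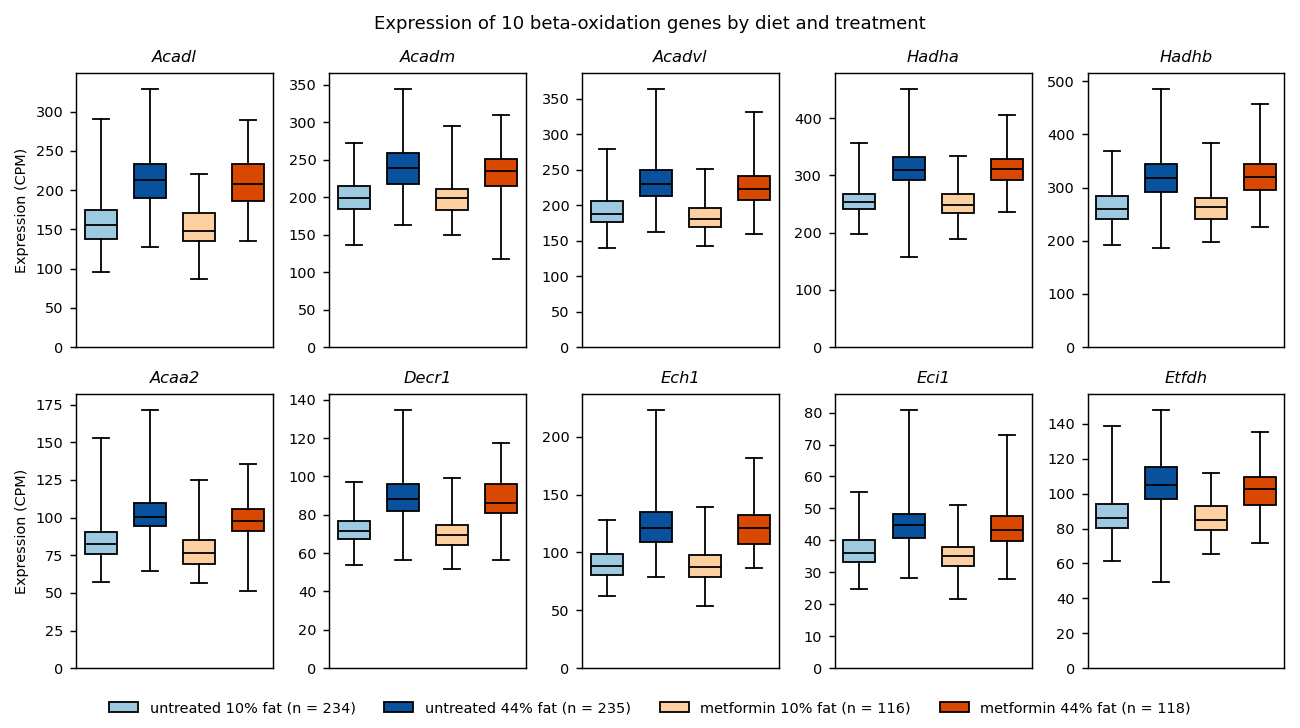
Level of each member in CPM, on a linear axis from 0, in untreated and metformin-treated animals on 10% and 44% fat. The boxes mark the quartiles, the line the median and the whiskers the lowest and highest animal. The medians are higher on 44% fat for all 10 genes in both treatments while the full ranges overlap.

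All 10 members were called in the diet comparison (edgeR, adjusted p from 1.5e-95 for Ech1 to 4.38e-48 for Eci1). They were among the 17 genes with the smallest p of the 16384 tested. The members were chosen with earlier results of these data known, so this rank is a description. The median log2 fold change of the members was 0.30, against -0.003 over all genes. Diet took 30.1% (Acadm) to 48.9% (Ech1) of the variance of a member's log2 CPM, with a median of 37.9% over members and 0.0726% over all genes tested. Strain took a median of 13.9% in the members and 15.4% over all genes. For the members diet therefore took more of the variance than strain, the reverse of the order seen over all genes. With the mean level of the citric acid cycle genes as a covariate the log2 fold changes of the members ran from 0.20 to 0.39, and all 10 were still called. Within the lower identifier range they ran from 0.25 to 0.45, and within the upper range from 0.27 to 0.50, again with all 10 called.

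The levels of other cell types were set beside this result. The 8 white adipocyte markers summed to 18.7, 123 and 704 CPM (lowest, median and highest) on 10% fat and 19.7, 124 and 788 CPM on 44% fat. Of these markers 6 were higher, among them Lep (leptin) with a log2 fold change of 1.19, and 2 were lower, Cfd at -0.54 and Retn at -0.42. Their most abundant members were Cfd and Lipe. The 10 slow fibre markers, led by Myh7 and Atp2a2, summed to medians of 2000 and 2010 CPM, and 4 of them were higher, by 0.17 for Casq2 and 0.15 for Tnni1. The 8 fast glycolytic fibre markers had summed medians of 128000 and 125000 CPM, with 3 lower and 0 higher. Of the 8 macrophage markers 0 changed by edgeR, and of 6 endothelial markers 3 were higher. Of the 8 brown adipocyte markers 1 was higher, and of 10 liver markers 1 was higher and 1 lower. Among the 6 cardiac markers 3 could be tested and 1 was higher. With the slow fibre list as a covariate the members' log2 fold changes ran from 0.24 to 0.45, and with the white adipocyte list from 0.25 to 0.46. Without the libraries rich in liver markers, and without those against their sex label, they also ran from 0.25 to 0.46. In bulk muscle, a change in the share of a fibre or cell type and a change in RNA per cell cannot be told apart.

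Both sexes showed the difference. In untreated females the log2 fold changes ran from 0.23 (Acadm) to 0.41 (Ech1), with all 10 members called (8.61% of all genes called, 4.38% higher). In males they ran from 0.27 (Acadm) to 0.50 (Ech1), again with all 10 called (12.8% of all genes, 6.69% higher). The value was higher in males for each member. In the test of the difference between the sexes 0 members were called by edgeR (0.568% of all genes), and 1 member, Ech1, had an unadjusted p under 0.05. For Ech1 the difference was 0.09 with a 95% interval of 0.02 to 0.15 (adjusted p = 0.274). For Hadhb it was 0.02 with an interval of -0.04 to 0.07.

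The diet comparison was repeated in the 234 animals given metformin, which share no animal with the untreated ones. All 10 members were again higher on 44% fat and called (12.1% of all genes called, 5.27% higher on 44% fat). Acadl had 86.16, 147.8 and 220.2 CPM on 10% fat (lowest, median and highest) and 135.4, 207.9 and 289.8 CPM on 44% fat. Its log2 fold change of 0.48 ± 0.024 (SE) was the largest there. Ech1 had 53.85, 87.37 and 139.2 CPM against 86.95, 120.7 and 181.2 CPM, with a log2 fold change of 0.46 ± 0.022 (SE). For both genes the ranges overlapped and the medians lay far apart. Acadm (0.24 ± 0.019) and Etfdh (0.25 ± 0.019) again had the smallest values (SE). Adjusted p ran from 1.12e-48 for Ech1 to 3.26e-25 for Acadm. Over the 10 members the order of the mean differences over strains was much the same in untreated and treated animals (Spearman's rho = 0.952, Pearson's r = 0.976, across genes, which are not independent).

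**Figure D2:**
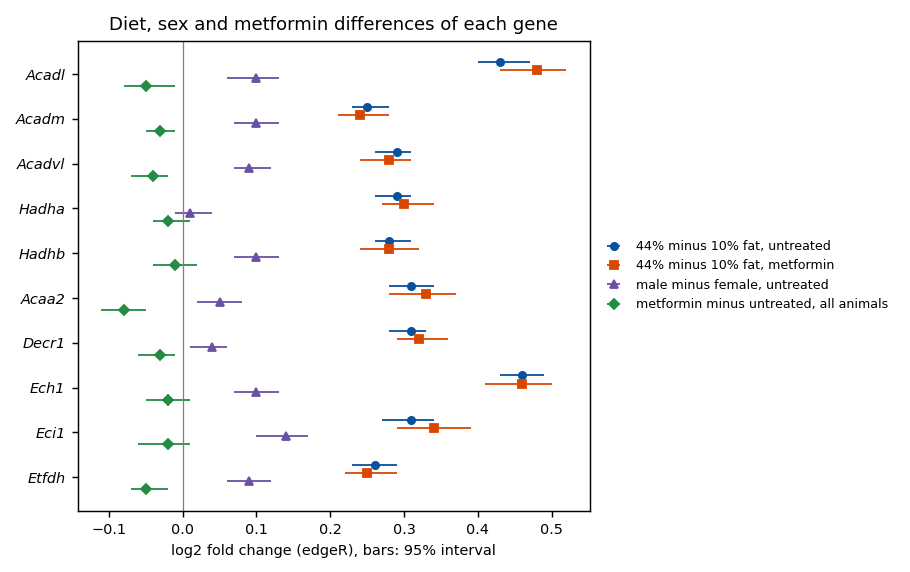
Log2 fold change of each member for diet in untreated animals, diet in metformin-treated animals, sex and metformin, with 95% intervals. Diet values lie between 0.24 and 0.48, and the metformin values lie between -0.08 and -0.01.

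The next comparison asked whether the diet difference depended on the strain. Over 20 strains and 10 members, all 200 differences in untreated animals were above 0 and 153 were called within their strain (edgeR; 1.04% of all pairs of strain and gene). In each of the 20 strains at least 1 member was called, and in 9 strains all 10 were. These were (CC002/UncJ x CC075/UncJ)F1, where 3.91% of all genes were called, (CC019/TauUncJ x CC042/GeniUncJ)F1 (1.92%), (CC019/TauUncJ x CC075/UncJ)F1 (1.15%), (CC042/GeniUncJ x CC060/UncJ)F1 (0.757%) and (CC043/GeniUncJ x CC042/GeniUncJ)F1 (0.696%). The other 4 were (CC075/UncJ x CC042/GeniUncJ)F1 (0.58%), (CC002/UncJ x CC043/GeniUncJ)F1 (0.513%), (CC011/UncJ x CC027/GeniUncJ)F1 (0.354%) and (CC051/TauUncJ x CC060/UncJ)F1 (0.232%). Ech1 was called in 20 strains, Acadl in 18, Hadha in 17, Acadvl and Decr1 in 16 and Hadhb in 15. Acadm was called in 14, Etfdh in 13, and Acaa2 and Eci1 in 12. Ech1 had the largest difference of the members in 14 strains and Acadl in the other 6. Acadm had the smallest in 8 strains and Etfdh in 5.

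In some strains the diets separated completely. In (CC042/GeniUncJ x CC060/UncJ)F1, Ech1 ran from 73.57 through 79.4 to 98.75 CPM in 11 animals on 10% fat and from 110.5 through 121.1 to 138.7 CPM in 11 on 44% fat. Hadha ran from 234.7 through 258.9 to 284.9 CPM against 285.1, 328.8 and 377.5 CPM. These genes and 3 further members did not overlap between diets there, where 0.061% of 16384 genes lay wholly higher on 44% fat. In (CC002/UncJ x CC043/GeniUncJ)F1, Ech1 and Decr1 did not overlap (0.0122% of genes). Ech1 ran from 77.03 through 86.61 to 97.25 CPM against 102.3, 124.4 and 147.5 CPM there, and Decr1 from 66.78 through 73.39 to 84.29 CPM against 85.72, 95.29 and 113.6 CPM (12 animals each). In (CC009/UncJ x CC013/GeniUncJ)F1 3 members, Acadl, Hadha and Ech1, did not overlap, but with 4 animals against 6 the same held for 0.519% of genes. Ech1 in (CC043/GeniUncJ x CC042/GeniUncJ)F1 and Hadha in (CC075/UncJ x CC042/GeniUncJ)F1 were the other cases (0.0122% of genes in each).

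The mean difference over the 10 members was largest in (CC043/GeniUncJ x CC042/GeniUncJ)F1, at 0.435 on the log2 scale. In that strain Ech1 ran from 62.4 through 67.83 to 83.22 CPM in 13 animals on 10% fat and from 85.33 through 99.14 to 129.2 CPM in 12 on 44% fat. It was smallest in (CC024/GeniUncJ x CC002/UncJ)F1, at 0.117, and the lowest of the other 19 strains was at 0.22. In (CC024/GeniUncJ x CC002/UncJ)F1, Acadl ran from 124.4 through 178.6 to 195.7 CPM on 10% fat and from 130.6 through 183.6 to 227.9 CPM on 44% fat (12 animals each). Hadha ran from 226.4 through 265.8 to 295.8 CPM against 220.2, 281.0 and 338.7 CPM. Both genes overlapped over most of their range in this strain. Ech1 ran from 88.99 through 104.1 to 127.9 CPM on 10% fat and reached a median of 122.6 and a highest value of 150.5 CPM on 44% fat, and was the only member called there, with a log2 difference of 0.23 ± 0.071 (SE, adjusted p = 0.0313). The other 9 members had values of 0.06 (Acaa2) to 0.13. The same strain had the most diet-called genes of any, 820 of 16384 (5.0%). On 10% fat its mean level over the members was the 2nd highest of the 20 strains, 0.108 above their mean on the log2 scale, and on 44% fat it was the 17th, 0.091 below.

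In metformin-treated animals the mean difference was again largest in (CC043/GeniUncJ x CC042/GeniUncJ)F1 (0.603) and smallest in (CC024/GeniUncJ x CC002/UncJ)F1 (0.08), where 9 of 10 members were above 0 and Etfdh was at -0.055. The next lowest strain there was at 0.205. Across the 20 strains the means in untreated and treated animals had r = 0.471 and rho = 0.189. Without (CC024/GeniUncJ x CC002/UncJ)F1 these fell to r = 0.207 and rho = 0.054, so the repeat rests largely on that strain. Strains share parental lines and are not independent, and these values are descriptions.

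In the test of diet by strain, with 19 terms, 0 members were called by edgeR (4.13% of all genes). The lowest adjusted p was 0.0605, for Decr1, and 6 members had an unadjusted p under 0.05. Decr1 was called with other size factors, with only genes that average at least 5 CPM and without the libraries against their sex label, at adjusted p of 0.0325, 0.0182 and 0.0325, and Acaa2 was called as well in the last of these. With limma Decr1 was at 0.132, and with limma on the lower identifier range alone at 0.0894.

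**Figure D3:**
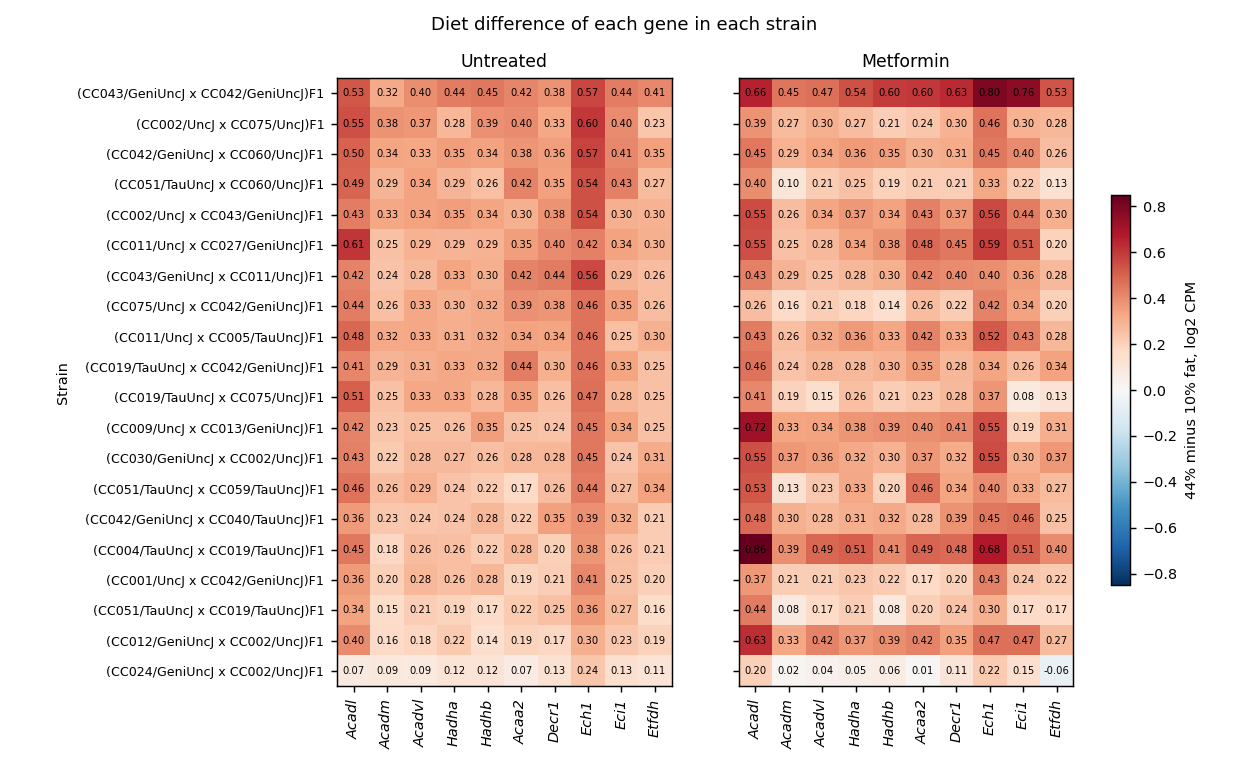
Log2 difference between 44% and 10% fat for each member (columns) in each of the 20 strains (rows), in untreated and in metformin-treated animals. All untreated values are above 0, and (CC024/GeniUncJ x CC002/UncJ)F1 has the smallest mean in both, 0.117 and 0.08.

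Strain levels were compared apart from diet. All 10 members differed between strains (edgeR; 95.4% of all genes in untreated and 89.5% in treated animals), so the calls do not set them apart. The highest strain exceeded the lowest by 1.23-fold for Hadha to 1.59-fold for Ech1. (CC043/GeniUncJ x CC011/UncJ)F1 was above the mean of the strains for all 10 members, by 0.17 on average on the log2 scale, and among the highest 5 strains for 9. (CC051/TauUncJ x CC019/TauUncJ)F1 was lowest on average, at -0.10, and among the lowest 5 strains for 9 members. Neighbours in the order of strains differed by less than the spread between animals, which had an SD of 0.137 (Hadha) to 0.196 (Eci1). That spread is wider than the error of a strain mean, which rests on 10 to 26 animals. Whether neighbours differ was not tested.

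Ech1 departed from the shared order, and Acadm and Decr1 did so in part. Acadm was highest in (CC024/GeniUncJ x CC002/UncJ)F1, at 0.205 above the mean of the strains. Decr1 was lowest in (CC009/UncJ x CC013/GeniUncJ)F1, at -0.155. Ech1 was highest in (CC009/UncJ x CC013/GeniUncJ)F1, at 0.355 above the mean of the strains, and lowest in (CC043/GeniUncJ x CC042/GeniUncJ)F1, at -0.313. All animals of that highest strain were in the upper identifier range, for which these levels are adjusted through the strains found in both ranges. The 6 strains with the parental line CC042/GeniUncJ averaged 0.192 below the other 14 for Ech1, and 0.108 above them for Acadl and 0.120 above for Acaa2. The 3 strains with CC051/TauUncJ averaged 0.209 below the others for Acadl, while the 3 with CC043/GeniUncJ averaged 0.180 above for Acadl and 0.173 above for Acadvl. In the 5 strains with CC002/UncJ, Acadm averaged 0.130 above and Hadhb 0.147 below. Every one of these sets of strains overlapped with the rest.

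**Figure D4:**
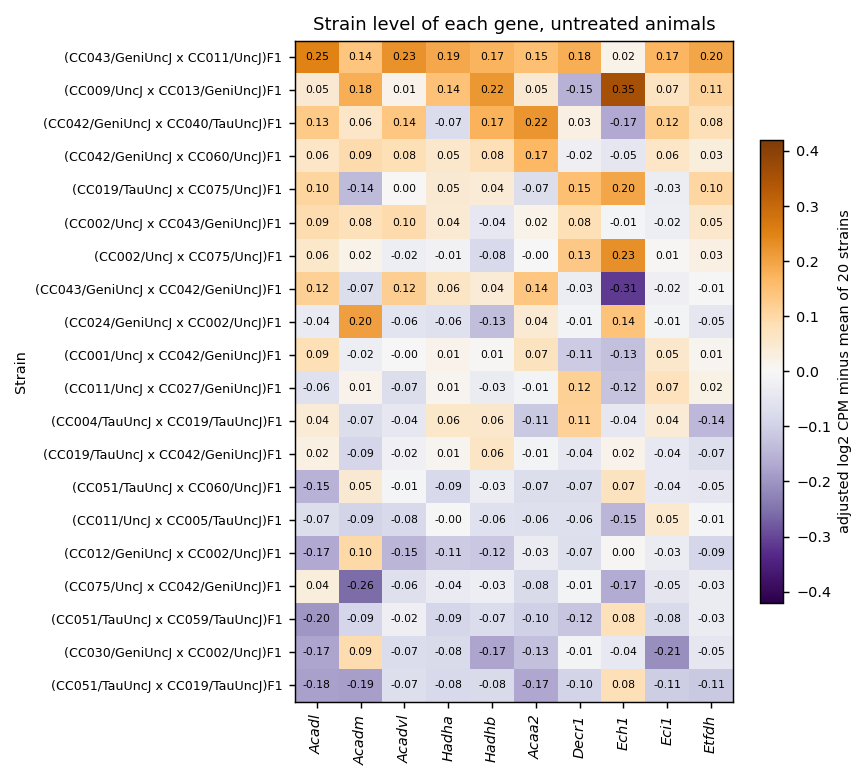
Level of each member (columns) in each strain (rows) in untreated animals, as the log2 difference from the mean of the 20 strains after adjustment for sex, diet and identifier range. Ech1 runs from -0.313 to 0.355 and does not follow the order of the other members.

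Males and females were compared in untreated animals. Of the 10 members 9 were higher in males, where 67.1% of all genes were called and 30.1% were higher in males, so the count is read against that background. Eci1 ran from 24.82 through 39.11 to 60.92 CPM in 236 females and from 25.68 through 42.32 to 80.86 CPM in 233 males. It had the largest log2 difference, 0.14 ± 0.018 (SE), and the sexes overlapped over most of the range. Hadha was the exception, with 197.6, 282.7 and 396.4 CPM in females and 157.7, 284.2 and 451.2 CPM in males. Its log2 difference was 0.01 with a 95% interval of -0.01 to 0.04 (adjusted p = 0.302), while that of Hadhb, its partner across the short gap, was 0.10 with an interval of 0.07 to 0.13. The difference between these genes was not itself tested. The remaining values ran from 0.04 (Decr1) to 0.10. Without the libraries against their sex label the same 9 members were called, with values of 0.02 (Hadha, not called) to 0.14. Decr1 and Acaa2, which had the smallest called values, were not called with only genes that average at least 5 CPM. With limma on the upper identifier range alone 6 members were called, without Decr1, Acaa2 and Eci1. With limma on the lower range alone 8 were called, without Decr1. In metformin-treated animals 8 members were higher in males (53.2% of all genes called, 23.9% higher in males), all but Hadha (0.02) and Acaa2 (0.04). Beside this, all 10 slow fibre markers were lower in males (median -0.59 on the log2 scale), 7 of 8 white adipocyte markers were lower and 14 of 16 citric acid cycle genes were higher. Their part in the result was not tested.

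Coordination was described over the 469 untreated animals, on log2 CPM after removal of strain, sex, diet and identifier range. All 45 pairs of members were positively correlated, from r = 0.606 for Eci1 with Etfdh to r = 0.83 for Hadha with Hadhb, with a median of 0.748. Every pair had a two-sided permutation p of 1e-05, raw and adjusted over the 45 pairs, the smallest that 100000 resamples can give. For Hadha with Hadhb rho was 0.808, and r without the 2 animals farthest from the median was 0.818. For Eci1 with Etfdh rho was 0.651 and r without such animals was 0.605. Over all pairs of 16384 genes the median r was -0.003, and 0.0112% of pairs reached 0.748. All these pairs share libraries, and with them depth, tissue handling and the age of the animal, which the labels do not give. The part of age was not tested.

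The median r was 0.739 within the lower identifier range, 0.77 within the upper range and 0.772 in metformin-treated animals. After removal of the mean level of the citric acid cycle genes it was 0.637, with a lowest pair of 0.349, after removal of the slow fibre markers 0.73 and of the white adipocyte markers 0.75. Acadvl had the highest mean r with the other members, 0.793, and Hadhb followed at 0.782, Hadha at 0.762 and Acadm at 0.757. Ech1 stood at 0.745, Acaa2 at 0.742, Acadl at 0.738, Etfdh at 0.732 and Decr1 at 0.73. Eci1 had the lowest, 0.683.

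Across strains, which share parental lines, the coordination of levels was looser. The mean levels of the 20 strains had a median r of 0.44 over the 45 pairs, from -0.245 for Acaa2 with Ech1 to 0.77 for Acadl with Acadvl, and 40 pairs were above 0. The diet differences of the strains had a higher median r, 0.759, with all 45 pairs above 0. These pairs ran from 0.551 for Acaa2 with Etfdh to 0.902 for Acadm with Acadvl. Over strains the differences had an SD of 0.068 (Hadha) to 0.107 (Acadl). Within a strain their median SE was 0.06 to 0.1, of like size. The members were measured in the same animals, so shared error enters these values of r, and its part was not tested. In metformin-treated animals the median r was 0.487 for levels and 0.816 for diet differences.

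**Figure D5:**
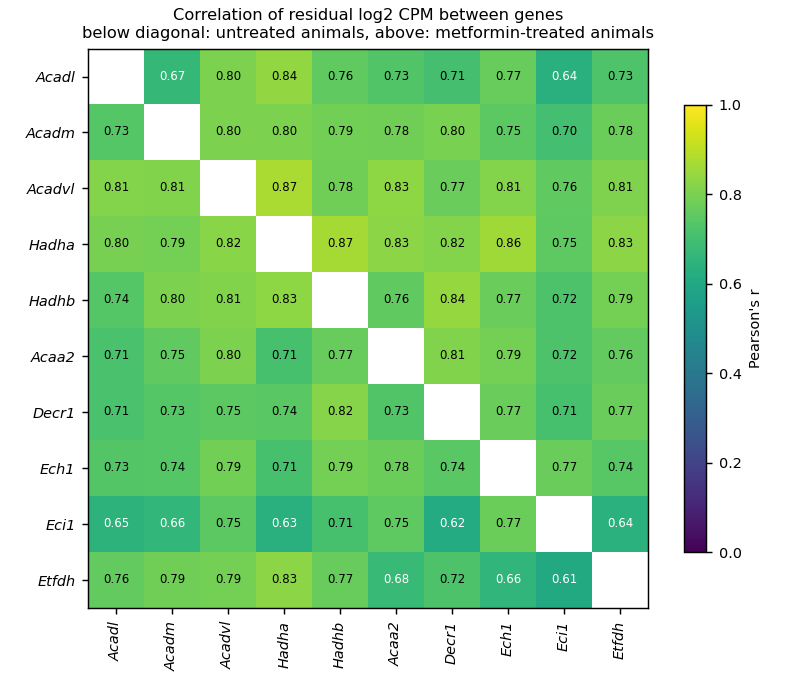
Pearson's r between members after removal of strain, sex, diet and identifier range, below the diagonal over 469 untreated and above it over 234 metformin-treated animals. All 45 values in untreated animals are positive, the highest 0.83 for Hadha with Hadhb and the lowest 0.606 for Eci1 with Etfdh.

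The genes most like the members were found by their r with the mean of the members' residuals over the same 469 animals, among 10114 genes. Etfa, a subunit of electron transfer flavoprotein, came first at r = 0.827. It was followed by Hsdl2, a hydroxysteroid dehydrogenase-like protein (0.793), Fabp3, the fatty acid binding protein of muscle (0.779), and Slc25a20, the carnitine-acylcarnitine carrier (0.773). Next came Acat1, the acetoacetyl-CoA thiolase (0.755), Cpt2 of the inner membrane (0.733), the isomerase Eci2 (0.729) and Cpt1b, the muscle carnitine palmitoyltransferase of the outer membrane (0.72). Hadh, the hydroxyacyl-CoA dehydrogenase for shorter chains (0.716), and Hspa9, a mitochondrial chaperone (0.685), closed the 10. The lowest values were those of Notch2 (-0.407), Col24a1 (-0.404), Sema3a (-0.386), Sned1 (-0.379) and Col11a2 (-0.378). These values are descriptions across animals.

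Other genes of the pathway were less uniform under diet. Members and lists were chosen with earlier results of these data known, so the contrast between them is a description. Of 20 further genes of mitochondrial beta-oxidation and its side reactions 19 could be tested, and 9 were higher on 44% fat, 2 were lower and 8 were not called. Their median log2 fold change was 0.03. The acyl-CoA thioesterase Acot2 (0.56) and the malonyl-CoA decarboxylase Mlycd (0.30) had the highest values. The short-chain dehydrogenase Acads was higher by 0.20, Hadh by 0.16, and the flavoprotein subunits Etfb by 0.21 and Etfa by 0.15, each less than any member. Echs1, the hydratase for shorter chains, was at 0.01 ± 0.014 (SE, adjusted p = 0.532). Mmab (-0.07) and Pcca (-0.06), which belong to propionyl-CoA breakdown, were lower.

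Of 14 genes that take up, activate and carry fatty acids into mitochondria, 10 were higher, 1 was lower and 3 were not called (median 0.19). Fabp3 rose by 0.87 ± 0.032 (SE) on the log2 scale, a larger difference than that of any member, and the fatty acid translocase Cd36 rose by 0.36. Slc25a20 rose by 0.31, Cpt2 by 0.25 and Cpt1b by 0.20. The activating enzyme Acsl3 was lower, at -0.18, and Acsl5 (-0.04) was not called. Of 12 PPAR genes and genes known to respond to them, 6 were higher, led by Acot1 (0.81) and the lipid droplet protein Plin5 (0.78). Pdk4, the kinase that restrains pyruvate oxidation, rose by 0.32.

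The regulators themselves changed little or were not called. Ppara was at 0.02 ± 0.041, Ppard at -0.02 ± 0.020 and Ppargc1a at -0.07 ± 0.045 (SE), and none of the 3 was called (adjusted p = 0.747, 0.496 and 0.301). The orphan receptor gene Esrrb rose by 0.20, Ppargc1b by 0.12 and Esrra by 0.08, and in all 8 of 16 regulators were higher and 0 lower. Of 13 peroxisomal genes, among which Ech1 is counted again, 7 were higher and 2 lower, with Acaa1b at 0.39 and Crot at -0.10. Other mitochondrial genes rose by far smaller amounts. All 16 citric acid cycle genes were higher, but by 0.03 to 0.07 (Cs, citrate synthase, 0.05), and 9 of 12 complex I subunits were higher with a median of 0.05. Of 4 acyl-CoA dehydrogenases of amino acid breakdown, which resemble Acadl and Acadm in sequence family, 3 were lower, with Ivd at -0.13 and Gcdh at -0.09.

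The last comparison set metformin-treated against untreated animals, where age cannot be told apart from the drug. The members were slightly lower in treated animals or not called, and the differences were far smaller than those of diet. Acaa2 ran from 56.36 through 76.59 to 125.2 CPM in treated and from 56.9 through 82.28 to 152.8 CPM in untreated animals on 10% fat. On 44% fat it ran from 51.12 through 97.81 to 135.7 CPM in treated and from 64.4 through 100.4 to 171.5 CPM in untreated animals. The groups overlapped over most of the range. Its log2 fold change was -0.08 ± 0.016 (SE, edgeR, adjusted p = 3.51e-05), the lowest of the members. Etfdh ran from 65.39 through 85.08 to 111.8 CPM in treated animals on 10% fat and from 71.89 through 102.5 to 135.3 CPM on 44% fat, within the untreated ranges given above.

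In all, 5 members were called, each lower in treated animals, where 19.4% of all genes were called and 11% were lower. Beside Acaa2 these were Etfdh (-0.05 ± 0.013), Acadl (-0.05 ± 0.016), Acadvl (-0.04 ± 0.012) and Decr1 (-0.03 ± 0.012; SE). For the others the 95% intervals lay between -0.06 and 0.02, with Hadhb at -0.01 and an interval of -0.04 to 0.02. In the upper identifier range alone, with 90 treated and 69 untreated animals, 0 members were called (1 gene of all tested). In the lower range 4 were, with values of -0.10 to -0.02. Without the 27 libraries rich in liver markers 2 members were called, and without the libraries against their sex label 3. With each strain left out in turn (limma), 2 members were called without (CC043/GeniUncJ x CC011/UncJ)F1, 3 without any of 10 other strains and 5 without any of the remaining 9.

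On 10% fat Acadl (-0.07) and Acaa2 (-0.09) were called (8.96% of all genes, 4.92% lower), and on 44% fat Acaa2 (-0.07) and Etfdh (-0.05; 9.09% of all genes, 5.63% lower). In females Acaa2 and Etfdh were called (10.1% of all genes, 5.64% lower) and in males Acaa2 (16.7%, 9.61% lower). In the tests of metformin by diet (0.0902% of all genes called) and by sex (3.12%) 0 members were called by edgeR, and 0 had an unadjusted p under 0.05 in either. The lowest adjusted p was 0.67 (Acadl) by diet and 0.332 (Etfdh) by sex.

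In the test of metformin by strain 2 members were called, Etfdh (adjusted p = 0.0435) and Ech1 (adjusted p = 0.0495), against 11.6% of all genes. Within strains, 4 of 200 pairs of strain and member were called (1.12% of all pairs), all lower in treated animals, and 68 pairs were above 0. In (CC043/GeniUncJ x CC011/UncJ)F1 (1.76% of its genes called) these were Etfdh (-0.24 ± 0.054), Acaa2 (-0.22 ± 0.065) and Acadvl (-0.19 ± 0.052), and in (CC002/UncJ x CC043/GeniUncJ)F1 (1.35%) it was Etfdh (-0.19 ± 0.054; SE). In (CC019/TauUncJ x CC075/UncJ)F1 and (CC019/TauUncJ x CC042/GeniUncJ)F1 all 10 members were at or above 0, up to 0.15 for Hadhb in the former, and 0 were called there.

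Members of related lists were lower under metformin as well. Of 19 further beta-oxidation genes 13 were lower and 0 higher, with Echs1 lowest at -0.11 and a median of -0.05. Of 14 genes of fatty acid uptake and carnitine transport 8 were lower, among them Cpt1a (-0.12) and Slc25a20 (-0.09), and 1, Acsl6 (0.07), was higher. Of 12 PPAR-responsive genes 6 were lower, among them Ucp3 at -0.24, and Txnip (0.15) was higher. Ppara was lower, at -0.23, and Ppargc1a at -0.14, in a list of 16 regulators with 5 lower and 0 higher. Of 13 peroxisomal genes 4 were lower. Citric acid cycle genes (13 of 16 lower, median -0.04) and complex I subunits (10 of 12 lower, median -0.05) had medians close to that of the members, -0.03, and all 4 acyl-CoA dehydrogenases of amino acid breakdown were lower, with Ivd at -0.15. With the citric acid cycle list as a covariate 2 members were called and their values ran from -0.03 to 0.03.

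Marker lists moved with treatment too. Of 8 white adipocyte markers 4 were lower, and their sum ran from 34.8 to 1330 CPM in treated against 18.7 to 704 CPM in untreated animals on 10% fat, and from 32.5 to 417 CPM against 19.7 to 788 CPM on 44% fat. Of 10 liver markers 2 were lower, with summed medians of 23.3 and 17.4 CPM on 10% fat and highest libraries of 7640 and 3340 CPM. Of 10 slow fibre markers 0 were called by edgeR, with summed medians of 2000 and 1880 CPM on 10% fat. With the white adipocyte list as a covariate 3 members were called. The part of these cell types in the result was not tested further.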

How the data were processed

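Gastrocnemius RNA of 703 mice was sequenced, 1 library per animal. The values deposited by the authors are estimated counts (expected counts) per gene: reads were aligned to a hybrid transcriptome of the founder strains and divided by expectation maximisation with EMASE in GBRS, and genes seen in too few samples were removed (every gene here has a count in 50.1% of libraries or more). A second table deposited by the authors holds these counts after a DESeq2 variance-stabilising transform, on a scale close to log2, and served as an alternative. The submitters' processing notes name GRCm38 and DESeq2, and their versions are not given in the sources used here. Genes with near-identical copies depend on how shared reads were divided.

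Counts, which are whole numbers in the table, were tested with edgeR 4.0.16 in R 4.3.3 (quasi-likelihood F test, TMM, filter by group). The p-values were adjusted by Benjamini-Hochberg over all genes tested, 16384 in untreated animals, 16418 in treated and 17740 in all, and a gene was called at an adjusted p under 0.05. Models held strain, sex, diet and identifier range, and treatment where it was compared; interactions were added in turn. SEs follow from the F statistic. CPM values use TMM library sizes, except summed marker levels, which use library totals, and log2 CPM used a prior count of 2. Diet within each strain was a contrast of the fit with a diet by strain term. Variance shares and correlations were computed in Python 3.11.15 with numpy 2.4.6, pandas 2.3.3 and scipy 1.17.1. DESeq2 1.42.0 and limma 3.58.1 were alternatives, and the fits were tested on simulated data. The study assigned animals to housing and diet by litter, with several litters per group, and the labels name neither litter nor cage. The tests treat animals as independent. Their p-values measure the spread between these animals, not that between litters or cages.

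The members and the lists of related genes were chosen with earlier results of these data known. Named genes were the members, the 10 genes most and 5 least like them, the 2 highest and 2 lowest genes of each list, the 2 most abundant of each marker list, and a few regulators and enzymes of the pathway.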

Additional observations from a re-analysis of the deposited data

Results flagged for a closer look

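The difference between metformin-treated and untreated animals was not the same in all 20 strains for Etfdh, the electron transfer flavoprotein-ubiquinone oxidoreductase (test of metformin by strain, edgeR, adjusted p = 0.0435). Its log2 difference, treated minus untreated, was lowest in (CC043/GeniUncJ x CC011/UncJ)F1 at -0.24 ± 0.054 and in (CC002/UncJ x CC043/GeniUncJ)F1 at -0.19 ± 0.054, and highest in (CC002/UncJ x CC075/UncJ)F1 at 0.07 ± 0.054 (SE). For Ech1, the dienoyl-CoA isomerase, the same test gave an adjusted p of 0.0495. Its values ran from -0.20 ± 0.063 in (CC002/UncJ x CC043/GeniUncJ)F1 to 0.14 ± 0.063 in (CC019/TauUncJ x CC075/UncJ)F1 (SE), and in 0 single strains was it called. Both calls lay close to the threshold. With other size factors the adjusted p was 0.0552 for Etfdh and 0.0553 for Ech1, with limma 0.0982 and 0.119, and with limma on the lower identifier range alone 0.131 and 0.291. Apart from these tests, 20 sets of values from groups of 4 to 10 animals were examined for a single far value. Of these 0 had one, where chance gives about 1 in 20. Among untreated animals only (CC009/UncJ x CC013/GeniUncJ)F1 had diet groups that small, with 4 and 6 animals.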

How the results depend on the processing

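The diet difference in untreated animals was called for all 10 members in each of 37 alternatives, with log2 values from 0.20 to 0.50, and all 10 were called in each alternative for metformin-treated animals. Diet within strains was called for 153 of 200 pairs of strain and member, and for 142 to 159 in other settings with all strains, of which limma gave 142. Limma on 1 identifier range called 62.6% of 190 pairs in the lower and 12 of 50 in the upper range, and leaving out 1 animal of (CC009/UncJ x CC013/GeniUncJ)F1 at a time gave 142 to 144 with limma. The median r between members fell from 0.748 to 0.637 without the citric acid cycle level. The metformin comparison depended most on the processing. Of the 5 members called, 0 were left in the upper range, 3 without libraries against their sex label, with the white adipocyte covariate or with the deposited variance-stabilised values, 2 without libraries rich in liver markers or with the citric acid cycle covariate, and 2 to 5 with a strain left out. Diet by strain called 0 members, but 1 with other size factors or with genes at 5 CPM or more and 2 without libraries against their sex label. Metformin by strain called 2, but 1 without those libraries and 0 with other size factors, genes at 5 CPM or more, limma, or limma on either range. The cause of these changes was not tested.

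Some values near 0 changed sign. For metformin these were Hadha 0.0096, Hadhb 0.017, Acaa2 0.0055, Decr1 0.00093 and Eci1 0.034 in the upper range, and Acadm 0.0087, Hadha 0.013, Hadhb 0.029, Decr1 0.0028, Ech1 0.025 and Eci1 0.024 with the citric acid cycle covariate. For the following tests the fits on 1 range also used limma in place of edgeR. For diet by sex in the upper range they were Acadl -0.077, Acadm -0.03, Acadvl -0.029, Hadha -0.04, Acaa2 -0.056 and Eci1 -0.041. For metformin by diet Hadhb was 5e-05 with genes at 5 CPM or more, 0.0018 with limma and 0.026 in the upper range, where Ech1 was -0.034 and Eci1 -0.055. For metformin by sex Acadl was -0.013, Acadvl -0.00013, Hadha -0.014 and Decr1 -0.019 in the lower range, and Acadvl -0.0024, Hadhb 0.035, Acaa2 0.014 and Eci1 0.082 in the upper range. For sex Hadha was -0.0098 with genes at 5 CPM or more, where 7 members were called.

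Counts over all genes moved by more than 1.5 times in some settings. Diet in untreated animals called 3320 genes, 365 in the upper range and 5856 with the citric acid cycle covariate. Diet in treated animals called 1979, 615 in the lower and 836 in the upper range. Metformin called 3437, 2240 at 5 CPM or more, 1 in the upper range and 2062 without (CC051/TauUncJ x CC019/TauUncJ)F1 (limma). In the tests that follow, every count within a range comes from limma on that range, so the tool and the animals changed together. Sex called 10998, 6408 at 5 CPM or more and 4075 in the upper range, and strain 15626, 8529 and 8457. Diet by strain called 677, 274 at 5 CPM or more, 0.623% of genes with limma, and 49 and 5 in the lower and upper ranges. Metformin by strain called 2061, and 838, 543, 261 and 36 in the same settings. Diet by sex called 93, and 22, 50, 20 and 3, with 55 without libraries against their sex label. Metformin by sex called 554, 217 with limma, 71 and 0 in the ranges. Metformin by diet called 16, 138 without libraries against their sex label and 0 at 5 CPM or more, with limma or in either range. Diet within strains called 3396 pairs of strain and gene, 2077 with limma, and 1851 and 152 in the ranges. Fits within a range hold fewer animals and at 5 CPM or more fewer genes. No paired analysis was possible because each animal gave 1 library on a single diet and treatment. The labels name neither litter nor cage, and the replicate number in the source labels links no animals.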
